A study of Mus musculus with 3 samples.

Results

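Mouse C2C12 myoblasts transfected with DGKzeta were compared with untreated C2C12 cells, 1 array each, over all genes that the platform annotation names with a single symbol. C2C12 is an established line of mouse muscle precursor cells that divides in serum and can be made to fuse into myotubes. The study hybridised 3 RNA samples to Affymetrix arrays: untreated cells, cells transfected with EGFP (a green fluorescent protein) and cells transfected with DGKzeta, all labelled 12 h. All 3 groups were of the same cell line, grown with fetal calf serum, and plated for 18 h before transfection by the FuGene method. The labels name no vector, promoter or species for DGKzeta, no share of transfected cells and no number of cultures. The untreated cells are not labelled as having received reagent or DNA, so in this comparison the transfection itself and DGKzeta cannot be told apart. The EGFP signal is therefore given beside the genes the results turn on, but not beside most members of the gene lists. Each group is 1 array, so ratios are given as sizes, with no p-value and no replicate check.

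DGK-zeta is one of the diacylglycerol kinases, which phosphorylate the membrane lipid diacylglycerol to phosphatidic acid. Diacylglycerol recruits and activates protein kinase C, protein kinase D and Ras activators, so the kinase ends one lipid signal and makes another. DGK-zeta also carries a nuclear localisation signal and a stretch like the phosphorylation site of MARCKS, and in C2C12 cells the nuclear enzyme is known for its link to cell cycle arrest and differentiation. Btg2, an antiproliferative gene, and Ccnd1, which encodes cyclin D1, are the genes that the study named beside it.

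The table held 12393 genes. Signals are MAS5 values on a linear scale, and a signal under 107, the median of all values of the 3 arrays, counted as not measured and was set to 107 before the log2 ratio was taken; a ratio with only 1 array measured is thus a bound, written "at least". By this rule 6866 genes were measured on at least 1 of both arrays by their brightest probe set, and 6461 on both. A gene's value is that of its brightest probe set, ranked by mean log2 signal across the 3 arrays. Of the 6866 genes, 2646 had 2 or more measured probe sets. Their sets gave an internal check within a gene, since they are different probes assigned to the same gene and read in the same RNA. A gene is said to agree when the ratios of all its measured sets had 1 sign. Over 2260 genes, the ratios of the brightest and the next probe set, both measured on both arrays, differed with an SD of 0.49 on the log2 scale per probe set, and the next set was lower by a median of 0.14. This spread covers different probes on 1 extract and not the spread between cultures.

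The median signal was 111.4 on the untreated array, 119.2 on the EGFP array and 92.5 on the DGKzeta array. The mean between the 2nd and 98th percentiles was 500 on the first pair and 499.9 on the DGKzeta array. The 3′/5′ signal ratio of the beta-actin controls was 1.27 untreated, 1.43 with EGFP and 2.55 with DGKzeta, while that of the Gapdh controls was 0.84, 0.90 and 0.93. The 5′ and middle controls of the transferrin receptor were under 107 on all 3 arrays. Of 12 myoblast markers 10 were measured, with 2 above 0, Myf5 and Vcam1, and 8 below. Ncam1, whose sets disagreed, and Sdc4 were at least 2-fold lower with DGKzeta, and none was 2-fold higher. Over all measured genes 2.8% were at least 2-fold lower and 1.34% higher. None of 6 endothelial markers was measured; of the markers of other cell types, 2 of 9 listed were measured for blood, 1 of 8 for epithelium and 2 of 12 for fat, bone and neuron. None of those 5 was 2-fold apart. How the RNA, the label and the scaling bear on single genes was not tested.

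DGKzeta-transfected cells had lower signals of cell surface and matrix genes (Mmp14, Cd44, Tnfrsf12a, Thbs1), of chromatin proteins (Brd2, Smarcc1, Hdac7) and of the nuclear RNA Malat1, each by all of its measured probe sets. Signals were higher for Dgkz itself, for the catalase gene Cat, the stress gene Trib3, the chaperone gene Canx and the sterol enzyme gene Cyp51. Both directions are against untreated cells, and how near the EGFP array lay to either differed by gene. By the brightest sets, Canx read 1953 untreated, 4042 with EGFP and 4665 with DGKzeta, and Malat1 1384, 92 and 47.5. Hdac7 read 597.6, 516.1 and 268.9, and Trib3 121.8, 107.1 and 305.4. In a bulk extract, fewer cells of a kind and less RNA per cell cannot be told apart. By the brightest probe set, 92 genes were at least 2-fold higher, 1.34% of the measured genes, and 192 were at least 2-fold lower, 2.8%. Of the genes with 2 or more measured probe sets, 23 were at least 2-fold higher with all sets above 0 (0.869%) and 44 were at least 2-fold lower with all sets below 0 (1.66%). Every measured set was at least 2-fold higher in 2 genes, Dgkz and Scoc (0.0756%), and at least 2-fold lower in 10 genes (0.378%). Which direction held more genes turned with some of the scalings. With equal medians over all probe sets of 1 symbol, which moved the median log2 ratio of the measured genes from -0.02 to 0.24, 253 were higher and 96 lower by the brightest set, and 69 higher and 19 lower among the agreeing genes. With quantile normalization, which moved that median to 0.05, 130 were higher and 135 lower by the brightest set, and 33 higher and 26 lower among the agreeing genes. With medians made equal over sets that all 3 arrays measured, which moved it to 0.08, the lower genes stayed the more numerous, at 125 higher and 147 lower by the brightest set and 32 and 35 among the agreeing genes. With DGKzeta and untreated arrays as deposited, 48.3% of the measured genes were above 0.

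**Figure D1:**
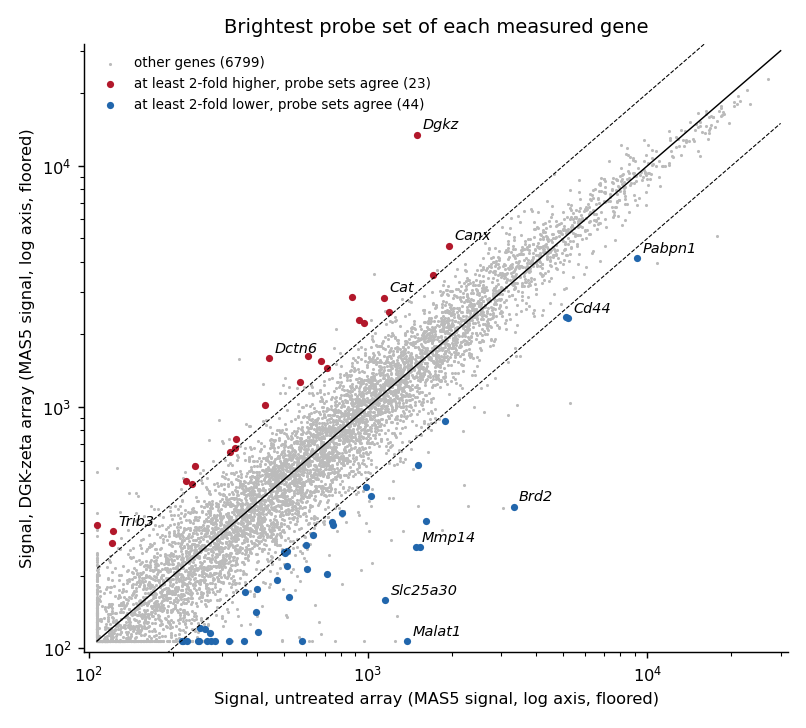
Signal of the brightest probe set of 6866 genes on the untreated array (horizontal, log axis) and the DGKzeta array (vertical, log axis), with signals under 107 set to 107; the solid line marks equality and the dashed lines 2-fold. Red points are the 23 genes at least 2-fold higher and blue points the 44 at least 2-fold lower whose measured probe sets agree, with Dgkz at 1500 and 13466.

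The 5′ ends of a few genes that the results turn on are shown first, to let the sequence be read beside the values: 2 genes lower by every measured set and 2 agreeing genes that were higher. Each is the 250 bases before the RefSeq transcription start on GRCm38.p6, 5′ to 3′ in the gene's direction. Capitals mark the GC box (GGGCGG, the letters bound by the Sp1 family), the CCAAT box (CCAAT, bound by NF-Y) and the TATA box (TATAAA), on both strands, so that CCGCCC and ATTGG are the same motifs on the other strand. Mmp14 lies at chr14:54431348-54431597 (+), Tnfrsf12a at chr17:23677450-23677699 (-), Cat at chr2:103485154-103485403 (-) and Trib3 at chr2:152344061-152344310 (-).
Mmp14: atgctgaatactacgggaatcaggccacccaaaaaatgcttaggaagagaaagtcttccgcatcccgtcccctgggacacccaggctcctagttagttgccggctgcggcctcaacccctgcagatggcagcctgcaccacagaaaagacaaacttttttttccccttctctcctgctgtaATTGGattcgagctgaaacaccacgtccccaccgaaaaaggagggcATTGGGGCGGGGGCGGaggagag
Tnfrsf12a: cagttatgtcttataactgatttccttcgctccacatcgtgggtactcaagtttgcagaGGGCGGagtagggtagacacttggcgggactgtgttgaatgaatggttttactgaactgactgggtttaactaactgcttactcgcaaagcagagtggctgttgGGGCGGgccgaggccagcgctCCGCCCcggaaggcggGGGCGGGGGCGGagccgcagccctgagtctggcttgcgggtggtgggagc
Cat: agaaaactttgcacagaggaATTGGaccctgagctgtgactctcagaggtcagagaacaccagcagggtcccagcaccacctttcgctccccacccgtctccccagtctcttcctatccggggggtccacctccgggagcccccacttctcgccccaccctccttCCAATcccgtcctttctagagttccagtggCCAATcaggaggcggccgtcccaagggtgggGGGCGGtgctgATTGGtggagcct
Trib3: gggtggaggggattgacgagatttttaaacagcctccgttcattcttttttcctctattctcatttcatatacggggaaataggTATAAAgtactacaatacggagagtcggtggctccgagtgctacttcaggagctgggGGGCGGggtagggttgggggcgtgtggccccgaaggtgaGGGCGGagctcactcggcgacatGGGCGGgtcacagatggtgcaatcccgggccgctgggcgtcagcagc

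These windows differ in the motifs they hold. Mmp14 holds 2 GC boxes and 2 CCAAT boxes, one of which overlaps a GC box, and Tnfrsf12a holds 5 GC boxes and no CCAAT box. Cat holds 4 CCAAT boxes and 1 GC box, and Trib3 holds 3 GC boxes and 1 TATA box. Over all measured genes, RefSeq gave 7308 windows for 5649 genes, and 61.2% of them held a GC box, 35.4% a CCAAT box and 6.05% a TATA box. Of the 44 agreeing lower genes, 35 had a window, and 26 of their 51 windows (51.0%) held a GC box, 15 (29.4%) a CCAAT box and 5 (9.8%) a TATA box. The 19 of 23 agreeing higher genes with a window had 33 windows, of which 18 (54.5%) held a GC box, 10 (30.3%) a CCAAT box and 2 (6.06%) a TATA box. The AP-1 site (TGANTCA) was in 4 windows of the higher genes (12.1%) and in 1 window of the lower genes (1.96%), against 4.19% of the windows of all measured genes. The E-box CACGTG and the cyclic AMP element TGACGTCA were in 0 windows of both sets, against 8.8% and 2.68%. Sets of 33 and 51 windows, several of them from the same gene, are small, and the shares are descriptions.

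The transfected gene gave the largest ratio among the agreeing higher genes. Its brightest probe set read 1500 untreated, 1053 with EGFP and 13466 with DGKzeta, a log2 ratio of 3.17 over untreated, or 8.98-fold. Its other set read 187.5, 240.3 and 4315, a log2 ratio of 4.52. On both sets the DGKzeta array stood above the other arrays, which lay close together. Btg2 was close to the floor: its brightest set read 94.7 untreated, 116.2 with EGFP and 117.2 with DGKzeta, and its other set was under 107 on all 3 arrays. Btg2 was thus measured only on the transfected arrays, with a bound of 0.13 on the log2 scale, inside the spread of a single probe set. The family members Tob1 and Btg1, antiproliferative genes of the same family, read 504.6 untreated and 1145 with DGKzeta, and 3094 and 3454. Tob1 had a log2 ratio of 1.18 by its 1 measured set, and both measured sets of Btg1 were between 0.16 and 0.21.

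Ccnd1 did not agree among its sets. The brightest read 3889 untreated, 3735 with EGFP and 4758 with DGKzeta, a log2 ratio of 0.29. The next read 4154, 3484 and 4026, a ratio of -0.05, and the third read 1731, 1574 and 323.2, a ratio of -2.42. A single signal for cyclin D1 therefore could not be given. Its relative Ccnd2, which encodes cyclin D2, agreed over 4 measured sets: the brightest read 806.8 untreated, 717.7 with EGFP and 364.7 with DGKzeta, and the 4 log2 ratios lay between -1.15 and -0.54. By the brightest set of Ccnd2 the EGFP signal lay near that of untreated cells. In its other measured sets EGFP was above untreated, at 778 against 621.3, 422.1 against 310.8 and 341 against 293.3. The DGKzeta signal was the lowest by all 4 sets. Of the 9 measured G1 cyclins and kinases, 4 were above 0 and 5 below. Of the 5 with 2 or more measured sets, none agreed above 0 and 3 agreed below. These were Ccnd2, Ccna2 and Cdk4, the last named after its values were seen. Ccna2, cyclin A2 of S phase, had a ratio of -0.39 by its brightest set.

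**Figure D2:**
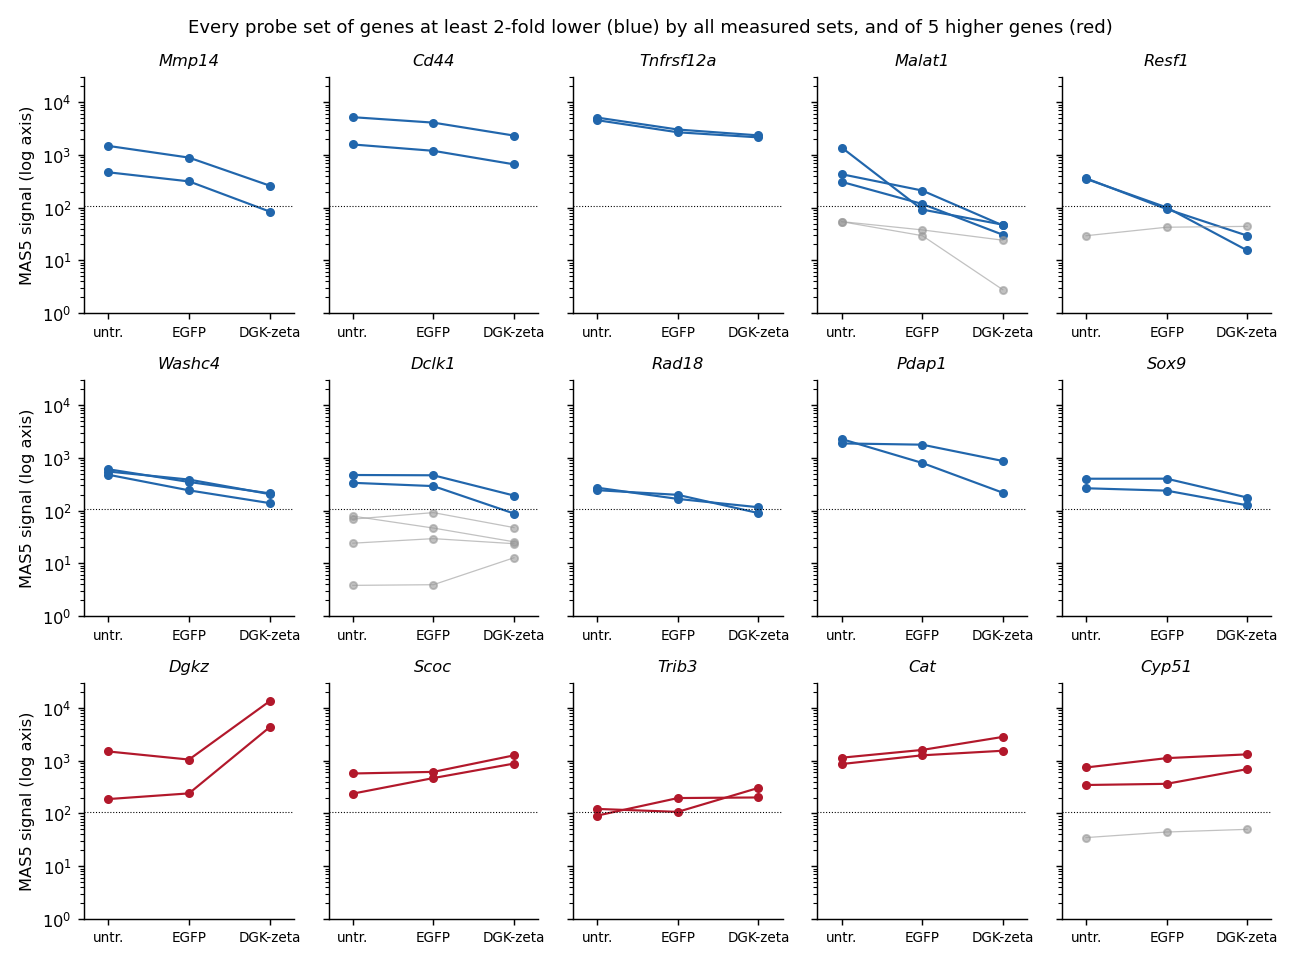
MAS5 signal (log axis) of every probe set of 15 genes on the untreated, EGFP and DGKzeta arrays; each line is 1 probe set, blue for the 10 genes at least 2-fold lower by every measured set, red for 5 agreeing higher genes, grey for sets measured on neither the untreated nor the DGKzeta array, and the dotted line is the floor of 107. The lines of Malat1 go from 1384, 430.9 and 308.8 on the untreated array to under 50 on the DGKzeta array, and those of Dgkz end at 13466 and 4315.

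Of the 10 genes lower by every measured set, 4 are given first: Mmp14, Cd44 and Tnfrsf12a, which act at the cell surface, and Pdap1. Mmp14, the membrane-bound matrix metalloproteinase that cleaves collagen and activates pro-Mmp2, read 1484 untreated, 890.8 with EGFP and 262.1 with DGKzeta by its brightest set, a log2 ratio of -2.50. Its other set read 468.5, 315.2 and 84.4, a ratio of -2.13 that is a bound. Cd44, the hyaluronan receptor, read 5211, 4107 and 2333 by one set and 1582, 1198 and 663.8 by the other, with log2 ratios of -1.16 and -1.25. Tnfrsf12a, the receptor for the cytokine TWEAK, read 5120, 3038 and 2353, and by a second set 4570, 2693 and 2156, with ratios of -1.12 and -1.08. The second set of Tnfrsf12a carries a suffix for probes that may match other transcripts too. Pdap1, which encodes a phosphoprotein named for its association with PDGF, read 1880, 1779 and 872.5 by the brightest set and 2275, 800.8 and 218 by the next, with ratios of -1.11 and -3.38. In all 4 genes the DGKzeta array was the lowest by every set, and the EGFP array lay between the others.

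The other 6 have roles in the nucleus, in trafficking or in the cytoskeleton. Malat1, an abundant nuclear noncoding RNA, read 1384, 92 and 47.5 by its brightest set, 430.9, 211.2 and 46 by the next and 308.8, 117.4 and 30.6 by the third. Its signals with DGKzeta were under the floor by all 3 measured sets, so that it was at least 12.9-fold lower by the brightest; the EGFP array was low by that set too, at 92. Resf1, a regulator of retroelement silencing, read 360.2, 94 and 29.4, and 351.4, 100.9 and 15.4 by its other measured set, with bounds of -1.75 and -1.71. Both transfected arrays were under the floor for Resf1. The brightest and the next set of Malat1, and the brightest set of Resf1, carry the suffix for probes that may match other transcripts. Rad18, a ubiquitin ligase of replication across damaged DNA, read 271.4, 166.2 and 115.5, and 243.4, 198.6 and 89.5, with ratios of -1.23 and -1.18, the second a bound.

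Sox9, the transcription factor of cartilage precursors, read 401.7 untreated, 402.5 with EGFP and 176.5 with DGKzeta by its brightest set, and 264.9, 238.6 and 125.8 by the other, with log2 ratios of -1.19 and -1.07. Dclk1, a microtubule-binding kinase, read 472.6, 467 and 192.6, and 335.9, 291.1 and 87.8, with a ratio of -1.30 and a bound of -1.65; its other 4 sets were not measured. For Sox9 and for the brightest set of Dclk1, untreated and EGFP signals lay close together and the DGKzeta signal was below both. Washc4, a subunit of the WASH complex that drives actin assembly on endosomes, read 607.1, 348.8 and 212.3 by its brightest set, and its 3 sets gave ratios from -1.79 to -1.42. For Washc4 the EGFP signal lay between the other arrays by all 3 sets, and 2 of these sets carry the suffix for probes that may match elsewhere.

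The next 10 agreeing lower genes, ranked by the set nearest to 0, were Hdac7, Thbs1, Acbd3, Tns1, Ccdc86, Fads2, Csrp1, Smarcc1, C330007P06Rik and Coro1c. Hdac7, a class IIa histone deacetylase, read 597.6, 516.1 and 268.9, and 211, 183.4 and 89.5, with ratios of -1.15 and -0.98, the second a bound. Thbs1, the matrix glycoprotein thrombospondin 1, read 1018, 756.1 and 534.6, and 548.9, 405.6 and 242.7, with ratios of -0.93 and -1.18. Tns1, tensin 1 of focal adhesions, read 722.2, 693.2 and 386.5 by its brightest set and 1245, 557.1 and 238.3 by the other, with ratios of -0.90 and -2.39. Csrp1, an actin-associated LIM protein, read 1662, 1507 and 895.9, and 827.9, 690.2 and 365.8, with ratios of -0.89 and -1.18. Thbs1 had its EGFP signals between those of the other arrays, while the brightest sets of Tns1 and Csrp1 read nearly the same with EGFP as untreated. Fads2, the delta-6 fatty acid desaturase, read 744.8 untreated, 978.8 with EGFP and 333.1 with DGKzeta, so that EGFP was the highest array and DGKzeta the lowest, and its other set read 366.2, 410.9 and 196.5. Coro1c, an actin-binding coronin, read 856.7, 922.6 and 468.4, again with EGFP the highest and DGKzeta the lowest by that set. Acbd3 (a Golgi protein), Ccdc86 and C330007P06Rik had brightest ratios of -1.05, -0.90 and -1.10. The brightest sets of Ccdc86 and Coro1c and the other set of Tns1 carry the suffix for probes that may match other transcripts.

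Other agreeing genes had a large ratio by 1 set and a small one by another. Brd2, a bromodomain protein that reads acetylated histones, read 3323, 1755 and 386.8 by its brightest set, a log2 ratio of -3.10, and 871.3, 775.9 and 523.6 by the other, a ratio of -0.73. Slc25a30, a mitochondrial carrier, read 1154, 638.4 and 158.1, with a ratio of -2.87, and its other 3 measured sets, under the floor with DGKzeta, gave bounds from -2.89 to -0.40. Bicd2, an adaptor of the dynein motor, read 1536, 1062 and 262.6, a ratio of -2.55, and its other measured sets gave a ratio of -0.69 and a bound of -2.60. Rbfox2, a splicing regulator known in muscle, read 711.4, 418.6 and 202.7 by its brightest set, a ratio of -1.81, but its other measured sets gave -0.19 and a bound of -0.07. For these genes the sign was shared and the size was not. Over the 44 agreeing lower genes, the median ratio was -1.21 by the brightest set and -0.68 by the set nearest to 0, and in 24 of them every measured set was at least 1.5-fold lower. Pabpn1, a nuclear poly(A)-binding protein, had the highest signal among the 44, 9209 untreated, 7694 with EGFP and 4136 with DGKzeta, and 3 of its 4 measured sets were 2-fold lower while the fourth read 455.1 and 454.9.

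Signals higher with DGKzeta were led, after Dgkz, by Scoc, a short coiled-coil protein of the Golgi. Scoc read 573.2 untreated, 615 with EGFP and 1266 with DGKzeta by its brightest set and 237.6, 469.7 and 884 by the other, with log2 ratios of 1.14 and 1.90. Trib3, a pseudokinase induced in the integrated stress response, read 121.8, 107.1 and 305.4, and 91, 195.9 and 201.1, with ratios of 1.33 and 0.91, the second a bound. By the second set of Trib3 the EGFP and DGKzeta arrays were alike, and by the first only the DGKzeta array was high. Cat, the catalase that breaks down hydrogen peroxide, read 1143, 1605 and 2836, and 866.2, 1269 and 1549, with ratios of 1.31 and 0.84. Cyp51, the lanosterol demethylase of cholesterol synthesis, read 745.4, 1121 and 1323, and 346.6, 364.8 and 694.4, with ratios of 0.83 and 1.0. Commd1, a regulator of copper handling and of NF-kB, read 1039, 1524 and 1880, and 448.4, 840.4 and 1074, with ratios of 0.86 and 1.26. For Cat and Commd1 the EGFP array lay between the others by both sets. The brightest sets of Trib3 and Commd1 carry the suffix for probes that may match other transcripts too.

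Cd24a, a small surface glycoprotein that is often high on progenitor cells, read 234.6 untreated, 336.1 with EGFP and 482.2 with DGKzeta by its brightest set. Its 3 measured sets gave ratios of 1.04 and 0.77 and a bound of 0.95, the last from a set of suffix _x_at. Rmi1, which works with the BLM helicase on recombination intermediates, read 389.4, 504.4 and 679.9, and 155.9, 237.1 and 377.7, with ratios of 0.80 and 1.28. Osbpl11, an oxysterol-binding protein relative, read 694, 849.4 and 1234 with a ratio of 0.83, and Phf20l1, a reader of methylated lysine, read 212.4, 299.8 and 387.3 with a ratio of 0.87. In all 4 genes the EGFP signal of the brightest set lay between untreated and DGKzeta. Of the remaining agreeing genes at least 2-fold higher, Dctn6, a dynactin subunit, had ratios of 1.85 and 0.39, Prss23, a secreted serine protease, 1.71 and 0.55, and Ltbp3, which binds latent TGF-beta, 1.42 and 0.73. Canx, the lectin chaperone calnexin of the endoplasmic reticulum, read 1953, 4042 and 4665, so that both transfected arrays were high, and its 3 sets lay between 0.38 and 1.26. The brightest sets of Rmi1, Osbpl11, Prss23, Ltbp3 and Canx carry the suffix for probes that may match other transcripts. Over the 23 genes the median was 1.2 by the brightest set and 0.43 by the set nearest to 0, and in 9 every measured set was at least 1.5-fold higher. Without sets of suffix _x_at or _s_at, 12 agreeing genes were at least 2-fold higher, 11 of them among the 23. On the lower side there were 44, 36 of them among the 44 as reported.

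The choice at 2-fold separated genes with nearly the same values. Just inside on the lower side were E130309D02Rik at -1.003 and Dtna with a bound of -1.01, and just outside were Babam2 at -0.998 and Srebf2 at -0.996. On the higher side Mmut at 1.02 and Tmem41b at 1.03 were inside, and Zkscan3 at 0.997 was outside.

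With the values as deposited, agreement was more frequent among genes whose brightest set was lower. Of the 2646 genes, all sets were above 0 in 538 (20.3%) and below 0 in 712 (26.9%). When the brightest set was higher, 538 of 1484 genes agreed (36.3%), and when it was lower, 712 of 1162 (61.3%). For genes at least 2-fold apart by the brightest set the shares were 23 of 41 (56.1%) higher and 44 of 81 (54.3%) lower, and at 3-fold and over they were 4 of 5 and 11 of 24. On the lower side the share did not climb with size: it was 70.8% at 1.2 to 1.5-fold and 45.8% at 3-fold and over. Dimmer sets lay below the brightest by the median of 0.14 given above, and probe sets with suffix _x_at or _s_at had a median log2 ratio of 0.10, against -0.07 for those with the plain suffix. Their part in the shares was not tested. The shares were not taken under the other scalings. With equal medians over all probe sets of 1 symbol, the agreeing genes at least 2-fold apart went to 69 higher and 19 lower.

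**Figure D3:**
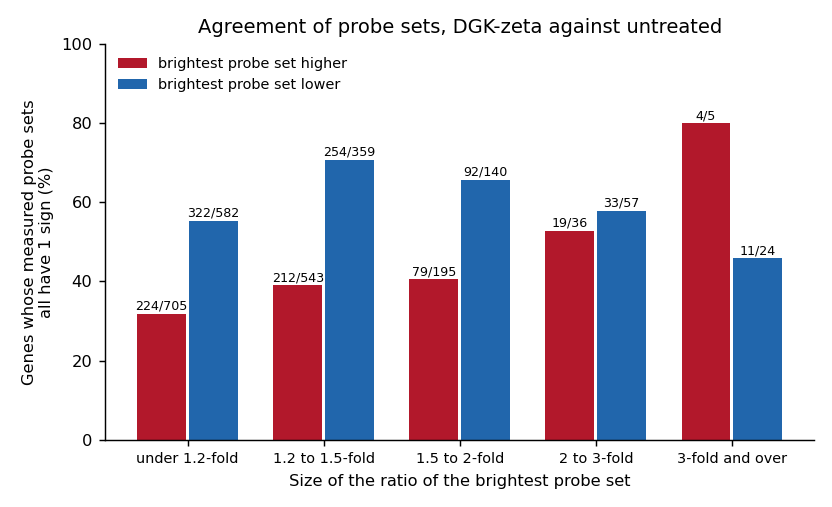
Share of genes (%) whose measured probe sets all had the sign of the brightest, by the size and direction of the brightest set's ratio, DGKzeta over untreated. Values are as deposited, and numbers above the bars are agreeing genes of all genes in the class. The lower side reads 55.3%, 70.8%, 65.7%, 57.9% and 45.8% from left to right, and the higher side 31.8%, 39.0%, 40.5%, 52.8% and 80.0%, the last over 5 genes.

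For 18 higher and 37 lower genes past 2-fold by the brightest set, another measured set had the opposite sign or lay at 0. Actb, beta-actin, read 17775 untreated, 16453 with EGFP and 5108 with DGKzeta by its brightest set, a log2 ratio of -1.80, while its other set read 100, 191.4 and 325.2, a bound of 1.60. The 3′, middle and 5′ controls of beta-actin, which gave no gene value, were all lower with DGKzeta than untreated. They read 20028, 18961 and 7437 (untreated, EGFP and DGKzeta), 15206, 13708 and 2607, and 15806, 13297 and 2914. Kif5b, the heavy chain of the ubiquitous kinesin motor, had 5 measured sets: the brightest read 3038, 2087 and 381.5, a ratio of -2.99, and the third read 382.9, 568.6 and 933.9, a ratio of 1.29. Pip5k1a, which makes the lipid that phospholipase C cleaves to diacylglycerol, read 666.3, 419 and 128.4 by its brightest set, a ratio of -2.38, and its other 3 sets were between 0.15 and 1.16. For Kif5b 3 sets were lower and 2 higher, so that no single value describes it. Phip and Ing1, both readers of histone marks, had brightest ratios of -2.53, a bound, and -1.55, beside an opposite bound of 1.07 and an opposite ratio of 0.91.

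In the other direction, Ppig, a cyclophilin of nuclear speckles, read 504.3, 842.5 and 1320 by its brightest set and 669.6, 235.7 and 117.5 by the other, with ratios of 1.39 and -2.51. Pank1, which starts coenzyme A synthesis, had ratios of 1.06 and -1.2. Clcf1, a cytokine of the interleukin-6 family, ran from 1.22 to -1.0 over 3 sets, Kpna4, an importin alpha, had 1.06 and a bound of -0.59, and Nme1, a nucleoside diphosphate kinase, 1.0 and -0.53. The sets of Ppig and Pank1 moved apart by more than 2-fold on each side of 0. Gna13, the G protein alpha subunit that activates RhoA, read 1272 untreated and 136.8 with DGKzeta by its brightest of 6 measured sets, a ratio of -3.22, and the 6 went from -3.22 to 0.36.

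**Figure D4:**
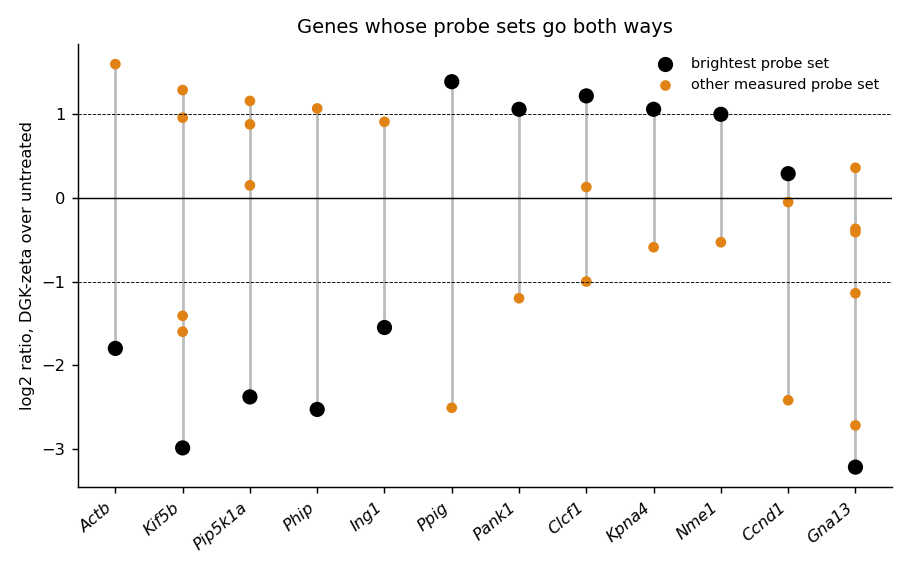
log2 ratio of DGKzeta over untreated (vertical) for each measured probe set of 12 genes, with the brightest set as a large black point and the others in orange; dashed lines mark 2-fold. Ppig spans 1.39 to -2.51 and Kif5b -2.99 to 1.29.

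A further 4220 measured genes had 1 measured probe set, so their ratio has no second reading. Of these, 51 were at least 2-fold higher and 111 lower, beside 1.34% and 2.8% of all measured genes. The 5 lowest measured on both arrays were Ago2, Sp1, Rasal2, Fam222b and Nop58. Ago2, the slicing Argonaute of RNA interference, read 1839, 697.9 and 308.7, a log2 ratio of -2.57. Sp1, the factor that binds GC boxes, read 2287, 1579 and 387.5, a ratio of -2.56, and its relative Sp3 read 110 untreated and 173.6 with DGKzeta. Rasal2, a Ras GTPase-activating protein, read 677.2, 556 and 115, a ratio of -2.56, and Nop58, a core protein of box C/D small nucleolar particles, read 2202, 1106 and 476.3, a ratio of -2.21. In all 4 the DGKzeta array was lowest and the EGFP array lay between. The 5 highest measured on both arrays were Tspan12, Snrpd3, Tmod1, Clec4d and Nenf. Tspan12, a tetraspanin, read 126.1, 209.9 and 558.9, a ratio of 2.15, and Tmod1, which caps the slow end of actin filaments in sarcomeres, read 139.8, 78.4 and 441.6, a ratio of 1.66. Nenf, a secreted haem-binding protein, read 147.2, 345.4 and 441.6, a ratio of 1.58, and Clec4d, a C-type lectin receptor of myeloid cells, read 291.9, 477.7 and 884.2, a ratio of 1.60. The measured sets of Tspan12 and Clec4d carry the suffix for probes that may match elsewhere.

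Gene lists by function were set beside all measured genes: 48.3% of these were above 0, their median was -0.02, and among genes with 2 or more measured sets 20.3% agreed above 0 and 26.9% below. The lists were chosen with earlier results of these data known, and some hold genes named above. Their leans are descriptions and give no independent support. The medians and the agreeing counts that follow are for the values as deposited. List medians move with the scaling by about the shift given above: with equal medians over all probe sets of 1 symbol, only those of collagens and matrix proteins and of sarcomere genes, both -0.01, were below 0 among the lists whose median is given here, against 0.24 for all measured genes. The agreeing counts of several lists changed sides under that scaling.

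Chromatin readers and remodelers had more members below 0 than above. Of 40 measured, 15 were above 0 and 25 below, with a median of -0.11. Of the 24 with 2 or more measured sets, 0 agreed above 0 and 12 agreed below; with equal medians over all probe sets of 1 symbol these were 2 and 8. Besides Brd2 (-3.10) and Hdac7 (-1.15), Smarcc1, a core subunit of the SWI/SNF remodeler, read 1615 untreated, 856.2 with EGFP and 336.1 with DGKzeta, a ratio of -2.26, and 197.7, 139.8 and 68 by its other set. Brd3, the relative of Brd2, had a bound of -1.21 by its brightest set and of -0.30 by another. The 12 also hold Ehmt2, a histone H3 lysine 9 methyltransferase (-0.74), Suz12 of the Polycomb complex (-0.60) and Smarca4, the SWI/SNF ATPase, whose ratio was -0.12 by the brightest set, with a bound of -2.40 by another; these 3 were chosen after their values were seen. Kdm6a, a demethylase of histone H3 lysine 27, was the 1 member at least 2-fold higher, with a bound of 1.05, and its sets did not agree.

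Genes of mitosis had 21 of 50 measured members above 0, a median of -0.10 and, of 21 with 2 or more sets, 0 agreeing above and 9 below, but 5 above and 1 below with equal medians over all probe sets of 1 symbol. Kif11, the kinesin that separates spindle poles, had ratios from -1.03 to -0.26, and Cenpe, the kinetochore kinesin, read 257.7 untreated and 5.84 with DGKzeta, a bound of -1.27. Spc25, of the kinetochore Ndc80 complex, was among the higher members at 0.69 with 1 set. DNA replication genes had 19 of 48 above 0, a median of -0.08 and, of 23, 4 agreeing above and 8 below, but 11 above and 2 below, with a median of 0.18, with equal medians over all probe sets of 1 symbol. None of the replication genes was 2-fold apart. Cdc45, of the replicative helicase, read 703.7 and 431.7, and Gins1, of the same helicase, 872 and 1196. Of the cell cycle inhibitors and the Rb and E2F families, 6 of 16 were above 0; Rb1, the retinoblastoma protein, read 467.5 and 769.8 with a ratio of 0.72, and E2f1 576.5 and 314.8 with a brightest ratio of -0.87 and another of -0.02. Cdkn1a, the inhibitor p21, read 935.3 and 1225, a ratio of 0.39, and its sets disagreed.

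Matrix and adhesion genes had more members below 0 than above. Among collagens and matrix proteins, 12 of 41 were above 0, the median was -0.29, and of 21 with 2 or more sets 3 agreed above and 8 below, or 5 and 5 of 22 under the other scaling. Thbs1 was lower by both sets, and Col8a1, a short-chain collagen, read 550.2 and 174.9 with 1 set (-1.65). Of matrix-modifying enzymes and their inhibitors, 9 of 30 were above 0, the median was -0.10, and of 15 genes 3 agreed above and 9 below, or 4 and 5 of 16 under that scaling. Besides Mmp14, Timp3, an inhibitor of metalloproteinases, read 1630 and 1064 and was lower by all its sets, between -1.03 and -0.48. Mmp2, the gelatinase that Mmp14 activates, had ratios of -0.49 and -0.47 by its sets (named after its values were seen). Prss23 went the other way, at 1.71. Of 6 measured integrins 1 was above 0, and of 5 with 2 or more sets none agreed above and 3 below, or 1 and 1 under that scaling. Itga5, the fibronectin receptor alpha chain, read 390.2 and 168.5 with 1 set (-1.21), and Itgav, of the vitronectin receptor, 2681 and 4345 with sets that disagreed. Actin and focal adhesion genes had 18 of 50 above 0, a median of -0.19 and, of 29, 3 agreeing above and 8 below, but 7 above and 2 below under that scaling. Flnc, the muscle filamin, read 1031 and 225.8 with 1 set (-2.19), Arpc4, of the Arp2/3 complex, 987.9 and 468.2 by its brightest set (-1.08), and Pfn2, profilin 2, 220.9 and 359.1 (0.70), with bounds of 0.64 and 0.85 by its other measured sets.

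Muscle genes were thinly measured. Of 26 myogenic regulators on the array 13 were measured, 6 of them above 0, and of 5 with 2 or more sets none agreed above and 2 below. Myf5, a myogenic factor of dividing myoblasts, read 1058 and 2036 with 1 set (0.94), and Six4, a homeobox factor upstream of it, 600.3 and 229.4 (-1.39). Tcf3, the E-protein partner of the myogenic factors, read 373.4 and 233 by its brightest set, and both its sets were lower, with a ratio of -0.68 and a bound of -0.38. Of 42 sarcomere and differentiation genes 11 were measured, with 3 above 0 and a median of -0.27; Des, desmin, read 795.2 and 478.7 (-0.73) with 1 set, and Ncam1, the neural cell adhesion molecule, 428.2 and 185.8 (-1.2) with sets that disagreed.

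Enzymes that make or use diacylglycerol and phosphatidic acid, the substrate and product of DGK-zeta, followed no common direction. Of 28 measured, 11 were above 0, the median was -0.09, and of 11 with 2 or more sets 1 agreed above and 4 below, but 3 above and 2 below of 12 with equal medians over all probe sets of 1 symbol. Dgka, another diacylglycerol kinase, read 77.1 untreated and 176.2 with DGKzeta, a bound of 0.72 from 1 set. Pip4k2c, a phosphoinositide kinase, read 616.2 and 330.8 by its brightest set (-0.90), with a bound of -0.08 by another, and Lpcat1, an acyltransferase, 1186 and 421.2 (-1.49) with sets that disagreed. Of 7 measured protein kinase C and D genes and substrates 4 were above 0; Prkd3, a protein kinase D, read 561 and 911.6 with sets that disagreed, and Prkca, the classical alpha isoform, 812.3 and 715.8 with both sets lower (-0.18 and -0.35). None of these 7 was 2-fold apart.

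Signalling lists were mixed. Of 16 measured G protein subunits and regulators 12 were above 0, and of 10 with 2 or more sets 4 agreed above and 0 below, although the 4 were small: Gna11, a subunit that activates phospholipase C, reached 0.44, Gnai3 0.28, Gng12 0.09 and Gnb1 0.06 (the 4 were chosen after their values were seen). Gnb2 read 2848 and 1321 with 1 set (-1.11). Of 32 Wnt pathway genes 16 were above 0 and 5 at least 2-fold lower, against 2.8% of all measured genes. Hipk2, a kinase of p53 and Wnt regulation, Csnk1e, casein kinase 1 epsilon, and Fzd2, a Frizzled receptor, were lower by all of their measured sets, with brightest ratios of -1.49, -1.27 and -1.21. Hipk3 read 976.4 and 1647 with both sets higher (0.75 by the brightest). Of 27 TGF-beta pathway genes 16 were above 0; of 9 with 2 or more sets 3 agreed above and 0 below, led by Ltbp3, which read 612, 895.8 and 1632. Inhba, the activin A chain, read 509.5 and 137.5 with 1 set (-1.89). Of the 21 measured MAP kinase genes 8 were above 0 and none was 2-fold apart. Rac1, a small GTPase of the actin edge, read 5118 and 3107 with all sets lower (-0.72 to -0.32), and Rap1b, a small GTPase of adhesion, 3206 and 5210 with all sets higher (0.70 by the brightest).

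Among the early response genes, Junb read 326 and 83.1 with 1 set, a bound of -1.60, Jun read 2394 and 1411 with all sets lower (-0.76 by the brightest, -0.10 by another), and Egr1 read 1267 and 1900 with 1 set (0.58). Of this list 11 of 25 were above 0, and of 8 with 2 or more sets 1 agreed above and 5 below. Of 23 p53 targets 11 were above 0, and 2 were at least 2-fold higher by 1 set each: Trp53inp1, an autophagy and death regulator, read 63.5 and 364, a bound of 1.76, and Gadd45a 158 and 354.5 (1.17). Mdm2, the ligase of p53, read 979.8 and 1683, and Ccng1, cyclin G1, 3436 and 6193, both with all sets higher (0.78 and 0.85 by the brightest). Of 29 interferon-stimulated genes 23 were above 0 with a median of 0.32. At least 2-fold higher, by 1 set each, were 3 of them, against 1.34% of all measured genes. Of the 3, Ifit1 read 19.7 and 314, a bound of 1.55. Of the 7 with 2 or more sets, 3 agreed above and 1 below. These p53 and interferon values set DGKzeta against untreated cells only, so the transfection itself and DGKzeta cannot be told apart in them.

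**Figure D5:**
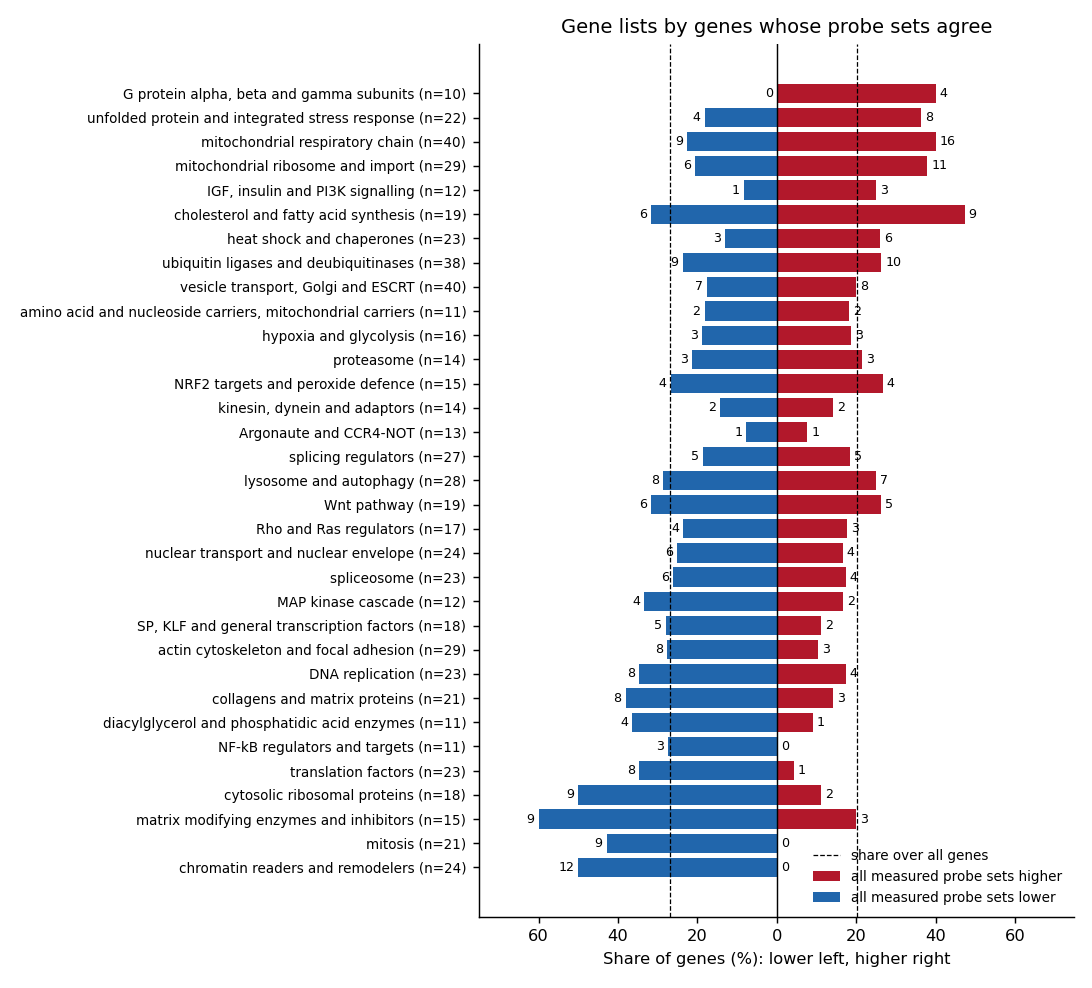
Share (%) of the genes with 2 or more measured probe sets whose sets were all higher (red, right) or all lower (blue, left) with DGKzeta, for gene lists with at least 10 such genes; n is the number of such genes, numbers at the bars are genes, and dashed lines are the shares over all genes, 20.3% and 26.9%. NF-kB genes (0 and 3 of 11), chromatin readers (0 and 12 of 24) and mitosis (0 and 9 of 21) have no bar to the right. With equal medians over all probe sets of 1 symbol they read 3 and 1, 2 and 8, and 5 and 1, and several other lists change sides too. The lists were chosen with earlier results of these data known.

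Lipid synthesis went both ways. Of 34 measured genes of cholesterol and fatty acid synthesis 19 were above 0, the median was 0.06, and of 19 with 2 or more sets 9 agreed above and 6 below. On the higher side were Scd1, the delta-9 desaturase, at 1220 and 2261 (0.89), Cyp51 (0.83), Acsl4, which activates arachidonic acid, at 451.1 and 740 (0.71), and Fdft1, squalene synthase, at 1580 and 2523 (0.68). On the lower side were Fads2 (-1.16), Srebf2, the transcription factor of cholesterol synthesis, at 763.2 and 382.6 (-1.0 and -0.67 by its sets), and Stard4, a sterol carrier, at 930 and 539.3 (-0.79). Scap, the escort of Srebf2, read 799.1 and 432.7 with 1 set (-0.89). All 7 genes with more than 1 measured set in these sentences agreed in sign.

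The unfolded protein and stress response list had 28 of 46 above 0, a median of 0.07 and, of 22 with 2 or more sets, 8 agreeing above and 4 below. Trib3 and Canx were described above; Slc7a11, the cystine carrier, read 66.9 and 200.9, a bound of 0.91 from 1 set. Eif2ak3, the kinase PERK, read 322.8 and 195.4 with 1 set (-0.72), and Cebpb, a transcription factor, 1172 and 736 with both sets lower (-0.67 by the brightest). The agreeing higher members included Atf4, the transcription factor upstream of Trib3, with ratios of 0.14 and 0.70, Asns, asparagine synthetase, at 0.07 and Hspa5, the chaperone BiP, at 0.06 by the brightest, named after their values were seen. Of 37 peroxide defence genes 20 were above 0 with a median of 0.07; Cat was the 1 member 2-fold apart, and Mgst1, a microsomal glutathione transferase, read 309 and 601.2 with 1 set (0.96).

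The respiratory chain had 37 of 70 measured members above 0, a median of 0.02 and no member 2-fold apart. Of 40 with 2 or more sets, 16 agreed above 0 and 9 below; these were 13 and 12 of 41 with quantile normalization and 32 and 2 of 41 with equal medians over all probe sets of 1 symbol. Ndufb6, of complex I, read 3179 and 4885 (0.62), and Sdhc, of complex II, 1688 and 1077 (-0.65). The mitochondrial ribosome and import list had 34 of 73 above 0 and, of 29, 11 agreeing above and 6 below; Tomm40, the import pore, read 1640 and 650.3 with 1 set (-1.33). Of 44 cytosolic ribosomal proteins 10 were above 0, the median was -0.10, none was 2-fold apart, and of 18 with 2 or more sets 2 agreed above and 9 below, but 10 above and 0 below with equal medians over all probe sets of 1 symbol. Rps19 read 15382 and 11012 (-0.48), and Rps6 614.5 and 1149 (0.90), each with 1 set. Translation factors had 12 of 39 above 0, a median of -0.08 and, of 23, 1 agreeing above and 8 below, but 9 above and 0 below under that scaling.

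RNA processing lists spread widely. Of 43 spliceosome genes 19 were above 0, with 2 past 2-fold on the higher side and 2 on the lower side. Snrpd3, an Sm core protein, read 1050, 1769 and 3561, and U2af1, which reads the 3′ splice site, 3505 and 1632 with 1 set (-1.10). Snrpa1, of the U2 particle, read 1693 and 2998 with both sets higher (0.82 and 0.14). Of 41 splicing regulators 27 were above 0 with a median of 0.10; Hnrnph2 read 768.7 and 2109 with 1 set (1.46), and Ptbp3 1677 and 962.4 with both sets lower (-0.80 and -0.23). In the Argonaute and CCR4-NOT list, 4 of 24 were at least 2-fold lower and none higher, against 2.8% and 1.34% of all measured genes. Besides Ago2, Cnot3, of the deadenylase, read 556.2 and 200.3 with 1 set (-1.47). Of 13 with 2 or more sets, 1 agreed above 0, 1 below and 11 disagreed.

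Lists with no member 2-fold apart were also hypoxia and glycolysis (19 of 31 above 0, median 0.20), heat shock and chaperones (25 of 39, median 0.13), lysosome and autophagy (29 of 54, median 0.04) and the BCL2 family and caspases (11 of 26, median -0.04). Slc2a1, the glucose transporter GLUT1, read 1158 and 2203 with both sets higher (0.93 and 0.11). Hspa1a, an inducible heat shock protein, read 57.5 and 199.6, a bound of 0.90 from 1 set, and Hspa1b 1827 and 2916 with all sets higher (0.34 to 1.43).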

How the data were processed

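Biotin-labelled RNA of 3 C2C12 samples went onto 1 Affymetrix array a group, per the labels. The deposited signals are linear probe set intensity values that the authors produced in MAS5, according to the submitters' processing notes. Its version and scaling target were not given in the sources used here, and the signals were not rescaled. Of 22690 probe sets, 64 controls, 691 with several gene symbols and 1555 with none gave no gene value; 20380 had 1 symbol, of which 20351 were found by gene ID in a RefSeq table (GRCm38.p6), with 0 symbols changed. Signals under the pooled 50th percentile (107) were set to it before log2 ratios of DGKzeta over untreated were taken, and ratios of at least 2-fold were counted. With 1 array a group no test was run, and the number of arrays limits the precision. The members and the 55 gene lists were chosen with earlier results of these data known.

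The rule for named genes took the genes of the title; the 10 highest and 20 lowest agreeing genes by the set nearest to 0; the 5 highest and 5 lowest with 1 measured set; the 5 most disagreeing in each direction; up to 4 list members a direction and those 2-fold apart; and the 3′, middle and 5′ controls. Not all are printed. Other genes are marked, or come from the agreeing 2-fold sets, or lie at the edge of that rule. Alternatives were 3 scalings, lower and higher floors (25th and 75th percentile), values under 1 set to 1 in place of the floor, 2 other rules for a gene's value, 2 probe set filters and rules of 1.5-fold and 3-fold. Scripts used Python 3.11.15, numpy 2.4.6 and pandas 2.3.3 and were tested on simulated data.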

Additional observations from a re-analysis of the deposited data

Results flagged for a closer look

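Probe sets to which the annotation gives no gene symbol entered no comparison above. Of 1555 such sets, 498 were measured on the untreated or the DGKzeta array, and 9 of them were at least 2-fold higher with DGKzeta and 40 at least 2-fold lower (1.81% and 8.03%). Of the 10833 measured sets with 1 symbol, 199 were higher and 564 lower (1.84% and 5.21%). They are listed because they carry signal outside the named genes; with 1 array a group the difference in shares was not tested.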

How the results depend on the processing

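No paired analysis was possible because each group is 1 array. Counts are given here as higher and lower by the brightest set, then higher and lower among agreeing genes, then higher and lower by every measured set; as reported they are 92 and 192, 23 and 44, and 2 and 10. With equal medians over all probe sets of 1 symbol they were 253 and 96, 69 and 19, and 12 and 5; all 19 and all 5 of these lower genes were among the 44 and the 10. A floor at the 25th percentile gave 351 and 520, 40 and 83, and 6 and 32, and one at the 75th gave 31 and 52, 11 and 12, and 1 and 4. With no floor they were 1234 and 1456, 125 and 186, and 41 and 90. The 1.5-fold rule gave 487 and 682, 102 and 136, and 28 and 62, and the 3-fold rule gave 11 and 44, 4 and 11, and 1 and 2. Quantile normalization gave 26 agreeing lower genes. Agreeing higher genes numbered 14 by the mean over sets as a gene's value and 12 without sets of suffix _x_at or _s_at, 11 of them among the 23. With only sets measured on both arrays, 23 agreeing genes were lower, 6 by every set. The other 31 of 72 counts were within 1.5 times. There were 3993 values of 415 named genes under the alternatives, and 6 of genes at least 2-fold apart as reported changed sign. Of the other values, 3806 moved by less than the SD of a single probe set and 181 by more. Sign changes of genes under 2-fold lie within those counts and were not counted apart. Of the 6, Ing1 was 0.91 with the brightest set taken over the DGKzeta and untreated arrays. Ppig was -0.56 and Pank1 -0.07 by the mean over sets. Nme1 was -0.53, Ric8a -0.15 and Ccdc47 -0.1 without those suffixes. By construction these alternatives averaged the brightest set with others or put another set in its place. The 30 agreeing genes named first kept 1 sign under all 3 other scalings, but this is no check, because they were ranked by the set nearest to 0. Phf20l1, the closest of them to 0, lay at 0.76, while the scalings moved the median of all measured genes to at most 0.24. The cause of the other differences was not tested.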

Other observations

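Sets that the annotation gives several gene symbols leaned the other way from those with none: of 409 measured, 13 were at least 2-fold higher with DGKzeta and 8 lower (3.18% and 1.96%). By suffix, 73 of 1656 measured sets ending in _x_at or _s_at were at least 2-fold higher and 53 lower, and of 6846 with the plain suffix 88 were higher and 361 lower. Of sets ending in _a_at, 38 of 2331 were higher and 150 lower.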
